A study of Mus musculus with 9 samples.

Results

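Spinal cords of 3 mice with experimental autoimmune encephalomyelitis (EAE) that received EHP-101 by mouth at 20 mg/kg were compared with the cords of 3 mice with EAE that did not. The comparison used 6 of the 9 RNA libraries of the study and covered the 16623 of 27179 gene identifiers that had 10 or more counts in 3 or more of these 6 libraries. All mice were C57BL/6, and 3 Control mice without EAE gave the remaining libraries. Each library was made from poly-A selected RNA of 1 biological replicate. The sources used here do not say how EAE was induced, how old the mice were, which cord level was taken, or when treatment began and the cords were sampled.

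EAE models multiple sclerosis: T cells reactive to myelin enter the spinal cord and draw in monocytes, and resident microglia and astrocytes become activated. EHP-101, named only by its code, is known as an agonist of the nuclear receptor PPAR gamma (Pparg) and of the cannabinoid receptor CB2 (Cnr2). CB2 is carried mostly by immune cells, and PPAR gamma controls genes of lipid handling and inflammation. The design asks which transcripts of the diseased cord move when the compound is given.

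Levels are given as CPM, a gene's count relative to its library's scaled total, in the order of replicates 1, 2 and 3. A gene was called when its adjusted p in the edgeR quasi-likelihood fit was under 0.05. The 6 libraries held 30448507 to 32661741 counts, and transcripts of the mitochondrial genome took 4.44% to 5.46% of them. Neuronal and myelin transcripts were abundant in every library, as in spinal cord: Mbp, the myelin basic protein gene, stood at 16104, 17804 and 15371 CPM in EAE and 17726, 18738 and 17907 in treated cords. Treated replicate 1 stood apart from the other treated libraries. On the first principal component of the 6 libraries, which held 66.9% of the variance, it scored 36.8, against 13.8 and 8.65 for treated replicates 2 and 3 and -26.0 to -13.1 for EAE. The rank correlation between gene length and a library's deviation in level was also -0.03 in treated replicate 1, against -0.34 and -0.20 in the other treated libraries and -0.35 to -0.27 in EAE. Hoxc9, a gene of thoracic cord identity, was uneven within groups, at 2.05, 4.54 and 3.99 CPM in EAE and 7.89, 8.02 and 2.02 in treated cords. The part of cord level and of the length trend in the results was not tested beyond the fits named here.

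The treated cords had lower levels of 811 genes (4.88% of those tested) and higher levels of 74 (0.445%). In either direction this was 885 genes (5.32%), and the median log2 fold change over all 16623 genes was -0.00097. Falls were larger than rises: 401 of the 811 falls were at least 2-fold and 81 at least 4-fold, whereas 5 of the 74 rises reached 2-fold. Every called gene had its 3 treated libraries on one side of its 3 EAE libraries, a separation that 17% of all genes tested showed downward and 10.8% upward. In bulk tissue, fewer cells of a type and less RNA per cell cannot be told apart. The count of falls was 407 without EAE replicate 2, 464 without EAE replicate 1 and 516 without treated replicate 2. That of rises was 19, 31 and 46 without EAE replicate 2, 1 or 3, 28 without treated replicate 1 or 2, 45 without treated replicate 3 and 205 without Control replicate 3.

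Set against the Control cords, 3396 genes were higher (20.4%) and 2830 lower (17%) in untreated EAE, while 1657 were higher (9.97%) and 1659 lower (9.98%) in treated EAE. These comparisons share libraries with each other and with treated against untreated EAE, so nothing further is read from their counts. For the 811 falls, the median log2 fold change against Control was 1.56 in EAE and 0.51 in treated EAE. For the 74 rises it was -0.43 in EAE and 0.00 in treated EAE. Both sets were chosen by treated against untreated EAE in these same libraries. The gap between the medians therefore follows from that choice.

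**Figure D1:**
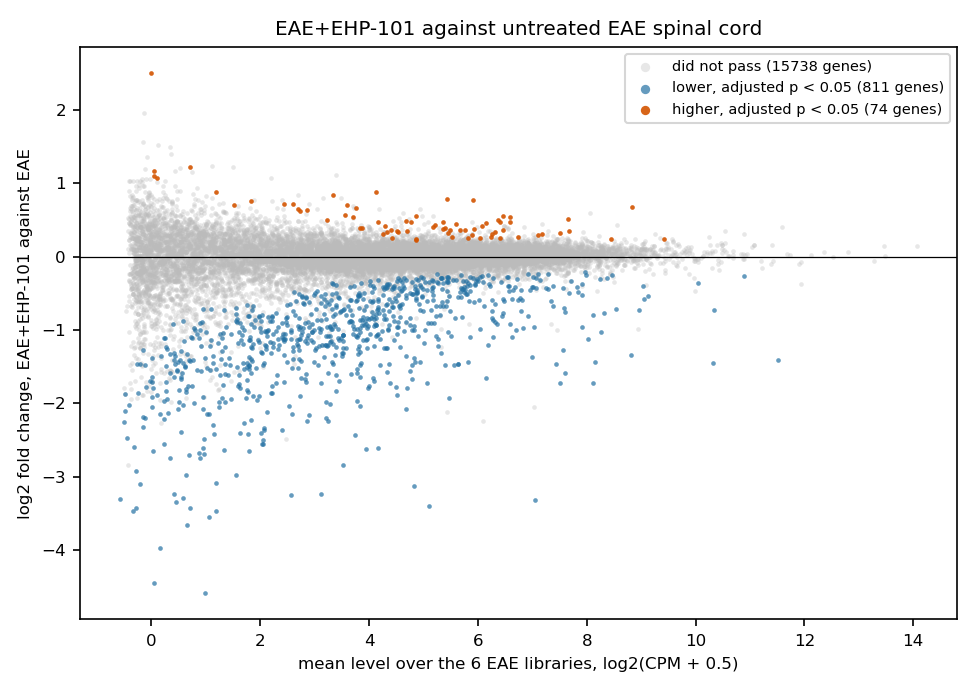
Each point is 1 of the 16623 genes, placed by its mean level over the 6 EAE libraries (log2 of CPM plus 0.5) and its fitted log2 fold change of EAE+EHP-101 against EAE; blue points are the 811 genes called lower and orange points the 74 called higher. Of the falls 81 were of at least 4-fold, and 69 of the 74 rises lie under a log2 fold change of 1.

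Promoter sequences are shown for 5 called genes from the main groups below, chosen because each carries a short motif known to be bound by a transcription factor. Whether these factors act on the genes in these cords was not tested. They are RefSeq windows of the build GRCm38.p6 that run from 250 bases before to 50 bases after the annotated start, printed 5′ to 3′ on the gene's strand. Capitals mark the motif on either strand. In Ctss and C1qc this is GAGGAAGT, the core bound by PU.1, the factor that directs macrophage and microglial genes. In Cybb and Bst2 it is the core of the interferon-stimulated response element, a pair of GAAA blocks with 2 bases of any kind between them, and in Hmgcs1 it is TCACNCCAC, a core of the sterol regulatory element bound by SREBP factors. The Ctss window also holds the interferon-stimulated core, which is left in lower case.
Ctss (chr3:95526536-95526835, plus strand): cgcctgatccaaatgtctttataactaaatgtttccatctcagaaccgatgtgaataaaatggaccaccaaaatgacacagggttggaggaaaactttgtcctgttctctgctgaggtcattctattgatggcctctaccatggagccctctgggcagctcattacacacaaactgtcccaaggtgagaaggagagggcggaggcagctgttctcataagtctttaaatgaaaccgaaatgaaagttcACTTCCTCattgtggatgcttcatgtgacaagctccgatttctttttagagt
C1qc (chr4:136892865-136893164, minus strand): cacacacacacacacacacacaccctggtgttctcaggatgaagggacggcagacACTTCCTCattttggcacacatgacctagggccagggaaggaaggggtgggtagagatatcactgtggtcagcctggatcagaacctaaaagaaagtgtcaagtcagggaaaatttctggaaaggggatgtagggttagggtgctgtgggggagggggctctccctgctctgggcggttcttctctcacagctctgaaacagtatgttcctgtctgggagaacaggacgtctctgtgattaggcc
Cybb (chrX:9469275-9469574, minus strand): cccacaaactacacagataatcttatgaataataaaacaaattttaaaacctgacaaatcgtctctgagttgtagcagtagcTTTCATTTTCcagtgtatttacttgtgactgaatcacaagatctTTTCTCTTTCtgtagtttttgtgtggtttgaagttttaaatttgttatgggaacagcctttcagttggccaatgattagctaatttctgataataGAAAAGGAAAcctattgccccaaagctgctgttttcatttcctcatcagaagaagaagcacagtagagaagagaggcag
Bst2 (chr8:71537423-71537722, minus strand): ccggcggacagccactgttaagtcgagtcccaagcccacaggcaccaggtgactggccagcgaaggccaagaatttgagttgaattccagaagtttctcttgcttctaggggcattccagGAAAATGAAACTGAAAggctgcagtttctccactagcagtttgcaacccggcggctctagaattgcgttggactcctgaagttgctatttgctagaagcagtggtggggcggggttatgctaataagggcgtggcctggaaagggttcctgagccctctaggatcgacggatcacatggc
Hmgcs1 (chr13:119690101-119690400, plus strand): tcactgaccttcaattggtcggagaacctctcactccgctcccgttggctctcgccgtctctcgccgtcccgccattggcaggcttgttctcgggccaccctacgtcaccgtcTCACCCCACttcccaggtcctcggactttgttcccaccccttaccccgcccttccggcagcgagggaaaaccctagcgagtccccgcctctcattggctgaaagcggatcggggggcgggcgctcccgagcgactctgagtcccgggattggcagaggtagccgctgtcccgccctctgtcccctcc
The RefSeq start of Hmgcs1 lies upstream of the gene start in the deposited table. Promoters were at hand for 12657 of the genes tested (16077 windows) and for 629 of the falls (795 windows). GAGGAAGT was in 7.30% of the windows of the falls and in 2.92% of all windows. The interferon-stimulated core was in 5.66% of the windows of the falls and 3.06% of all, and TCACNCCAC in 1.26% of those of the falls and 1.14% of all. In the 61 windows of the rises TCACNCCAC and GAGGAAGT were each found 3 times (4.92%). The windows with TCACNCCAC were those of Acsl1, Col11a2 and Hmgcs1, and Hmgcs1 was the 1 match in 19 windows of the cholesterol synthesis list. Of the other motifs searched, the interferon gamma-activated site was in 8.43% of the windows of the falls and 6.84% of all, the antioxidant response core in 127 of 795 and 2258 of 16077, the NF-kappaB core in 1.13% and 0.435%, and the lysosomal E-box in 0.252% and 0.566%. The PPAR direct repeat, to which PPAR receptors bind with a partner, was in 5 of the 16077 windows and in none of those of called genes. A match describes the letters of a window and shows no binding.

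Among called genes with a mean log2 level of at least 1, the 15 largest falls included Lyz2, the lysozyme of macrophages and monocytes (chr10:117277541-117282272, mm10), at 376, 541 and 391 CPM in EAE and 22.5, 45.1 and 63.4 in treated cords (log2 fold change -3.32, SE 0.30, adjusted p = 0.0006). Its highest treated value was far below its lowest EAE value, and Control cords held 9.36 ± 1.19 CPM (SD, n = 3). Gpnmb, a glycoprotein of lipid-laden phagocytes (chr6:49036518-49058182), stood at 90.1, 154 and 95.8 CPM in EAE and 6.39, 11.6 and 14.2 in treated cords (log2 fold change -3.40, SE 0.26, adjusted p = 0.00021). Mmp12, the macrophage elastase (chr9:7347374-7360461), stood at 3.8, 7.04 and 3.65 CPM in EAE and 0.0959, 0.194 and 0.928 in treated cords (log2 fold change -3.56, SE 0.53, adjusted p = 0.0035). All treated values of Mmp12 were under 1 CPM, and treated replicate 3 was the highest of them.

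Ms4a7, a membrane protein of macrophages (chr19:11321406-11336116), was at 4.44, 6.11 and 4.49 CPM in EAE and 0.352, 0.582 and 0.416 in treated cords (log2 fold change -3.47, SE 0.25, adjusted p = 0.00015), and its 3 treated libraries lay close together. The lipid and debris receptor Msr1 was at 5.04, 5.95 and 3.33 CPM in EAE and 0.256, 0.452 and 0.96 in treated cords (log2 fold change -3.09, SE 0.37, adjusted p = 0.0017). Acod1, the enzyme that makes itaconate in activated macrophages, was at 9.2, 4.64 and 6.01 CPM in EAE and 0.32, 0.808 and 1.38 in treated cords (log2 fold change -2.98, SE 0.40, adjusted p = 0.0024). The chemokines Ccl3 and Ccl4 fell with log2 fold changes of -2.65 and -2.64. Lilrb4a (-3.26), an inhibitory receptor, Cst7 (-3.24), a cystatin, Clec7a (-3.13), the beta-glucan receptor dectin-1, Itgax (-2.85), the integrin CD11c, Cybb (-2.61) and Slamf7 (-2.56) also belonged to the 15. The call of Slamf7 was lost in 4 of 20 alternatives, which were DESeq2, both fits with the replicate block, and leaving out EAE replicate 2. The list held 1 fibrillar collagen, Col3a1, at 35.1, 40.4 and 34.9 CPM in EAE and 4.83, 5.69 and 7.46 in treated cords (log2 fold change -2.62, SE 0.17, adjusted p = 0.0001). How reads shared by near-identical genes were counted is not given in the sources used here, so Lyz2 and Lilrb4a, which have close paralogs, are uncertain to that extent.

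**Figure D2:**
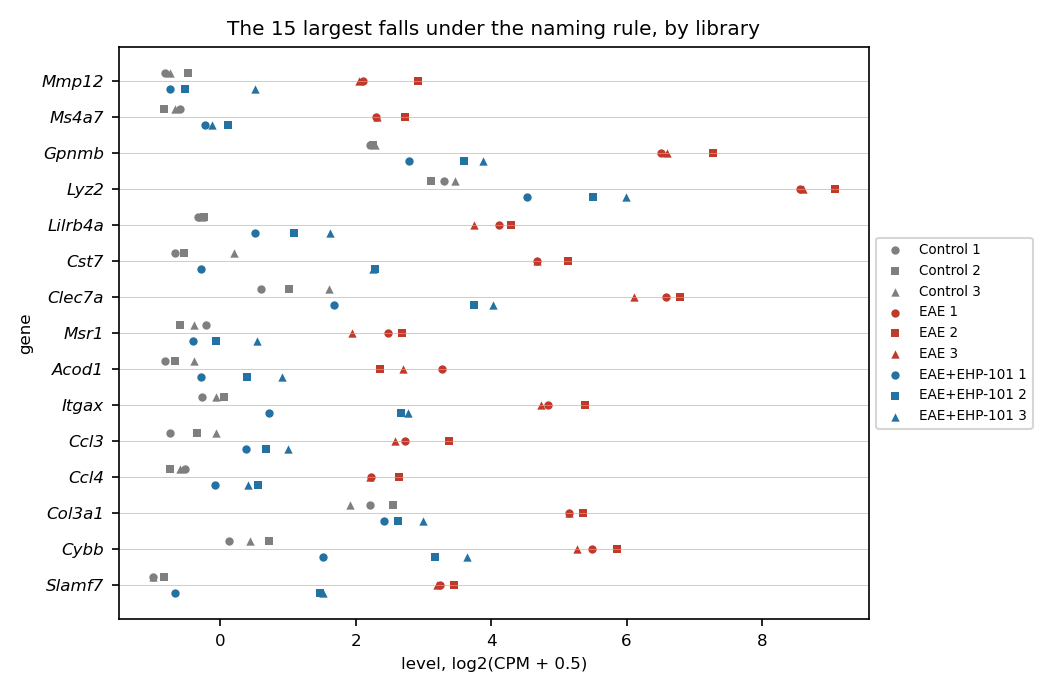
Level of each of the 15 genes with the largest falls, as log2 of CPM plus 0.5, with 1 point per library; grey is Control, red EAE and blue EAE+EHP-101, and circles, squares and triangles are replicates 1, 2 and 3. The blue points lie left of the red ones for every gene. Treated replicate 1 is the leftmost blue point for all 15 and stands well clear of the other treated libraries for Cst7, Clec7a, Itgax, Cybb and Slamf7.

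Genes of disease-associated microglia, the lipid-handling state that microglia enter around damaged myelin, gave the highest share of falls among the lists with more than 6 members. Of 23 members tested, 20 fell and 0 rose, with a median log2 fold change of -1.44. Trem2, the lipid-sensing receptor of this state, was at 65.2, 89.4 and 60.5 CPM in EAE and 15.4, 29.9 and 31.7 in treated cords (log2 fold change -1.48, SE 0.23, adjusted p = 0.0042), and its signalling partner Tyrobp was at 116, 153 and 116 CPM in EAE and 23.7, 50.4 and 48.6 in treated cords (log2 fold change -1.65, SE 0.23, adjusted p = 0.0026). Both were lower in each treated library than in each EAE library. Apoe, the lipid carrier, was at 4255, 6173 and 4045 CPM in EAE and 1423, 1972 and 2036 in treated cords (log2 fold change -1.41, SE 0.17, adjusted p = 0.0017). Igf1, a growth factor made by activated microglia, was at 16, 20.7 and 15.4 CPM in EAE and 7.48, 6.21 and 7.2 in treated cords (log2 fold change -1.32, SE 0.13, adjusted p = 0.00085), and here treated replicate 1 was the highest of the treated libraries. The count was 20 with any single library left out. Treated replicate 1 was the lowest treated library for 20 of the 23. Itgax is also in the list of dendritic cell markers, and the part of infiltrating phagocytes in these falls was not tested.

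Of 14 markers of resting microglia tested, 8 fell, with a median of -0.69. Against Control, the list's median was 1.12 in EAE and 0.46 in treated EAE. The fractalkine receptor Cx3cr1 was at 176, 184 and 124 CPM in EAE and 63.2, 92.6 and 90.8 in treated cords (log2 fold change -0.97, SE 0.16, adjusted p = 0.0063). Tmem119, a marker of resident microglia, had a smaller fall (log2 fold change -0.62, SE 0.16, adjusted p = 0.044) whose call was lost in 11 of 20 alternatives, among them leaving out any EAE library, treated replicate 2 or Control replicate 1 or 2. The purinergic receptor P2ry12 did not pass, at 52.1, 55.5 and 42.3 CPM in EAE and 34.4, 41.2 and 40.1 in treated cords (adjusted p = 0.28).

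Lysosomal genes followed, with 24 of 35 lower, 0 higher and a median of -0.52. The protease cathepsin D, Ctsd, was at 1895, 2628 and 1869 CPM in EAE and 621, 835 and 892 in treated cords (log2 fold change -1.44, SE 0.15, adjusted p = 0.00096). Atp6v0d2, a proton pump subunit of macrophages and osteoclasts, was at 1.63, 1.47 and 1.62 CPM in EAE and 0.032, 0.097 and 0.16 in treated cords (log2 fold change -3.98, SE 0.39, adjusted p = 0.00085). No treated library held 10 counts of it, so it passed the count minimum through the EAE libraries and its fold change is imprecise. Cd68 and Ctsz, a macrophage sialomucin and a cathepsin, fell with log2 fold changes of -2.08 and -1.36. Of 15 scavenger receptors 8 fell (5 without EAE replicate 2), among them Olr1, a receptor for oxidised lipoprotein, at 1.99, 1.7 and 1.34 CPM in EAE and 0.288, 0.226 and 0.224 in treated cords (log2 fold change -2.75, SE 0.27, adjusted p = 0.00088), which likewise had fewer than 10 counts in every treated library.

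All 6 subunits of the phagocyte NADPH oxidase, which makes superoxide, fell. Its catalytic subunit Cybb was at 44.3, 57.3 and 38 CPM in EAE and 2.37, 8.5 and 12 in treated cords (log2 fold change -2.61, SE 0.38, adjusted p = 0.0032), and treated replicate 1 lay well under the other treated libraries. The organiser Ncf1 was at 38, 38.8 and 31.8 CPM in EAE and 11.3, 16 and 18.9 in treated cords (log2 fold change -1.24, SE 0.16, adjusted p = 0.0022). Of 18 complement genes 15 fell (median -1.45), including the C1q chain C1qc at 283, 337 and 269 CPM in EAE and 65.5, 123 and 132 in treated cords (log2 fold change -1.47, SE 0.22, adjusted p = 0.0036) and the anaphylatoxin receptor C3ar1 at 29.6, 34.8 and 22.4 CPM in EAE and 3.77, 8.14 and 9.18 in treated cords (log2 fold change -2.04, SE 0.27, adjusted p = 0.0023). Of 19 Toll-like receptors and adaptors 12 fell, and the co-receptor Cd14 was at 19.1, 22 and 15.3 CPM in EAE and 4.38, 5.69 and 7.26 in treated cords (log2 fold change -1.70, SE 0.18, adjusted p = 0.00096). Fc receptors and their kinase Syk gave 5 falls of 8, and inflammasome genes 8 of 16, such as the adaptor Pycard (log2 fold change -1.21, SE 0.20, adjusted p = 0.0054). The inflammasome count was 3 without EAE replicate 1, without EAE replicate 2 or without treated replicate 2.

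Spi1, which encodes PU.1, was itself at 14.9, 14.5 and 11.8 CPM in EAE and 4.03, 5.69 and 6.24 in treated cords (log2 fold change -1.37, SE 0.18, adjusted p = 0.0022); it was named after its value was seen. Cytokines and their receptors gave 20 falls of 34 and 0 rises. Tnf, an inflammatory cytokine, was at 2.29, 0.96 and 1.12 CPM in EAE and 0.16, 0.259 and 0.32 in treated cords (log2 fold change -2.55, SE 0.48, adjusted p = 0.01) and the inflammasome product Il1b at 5.1, 2.08 and 2.4 CPM in EAE and 0.479, 0.549 and 1.12 in treated cords (log2 fold change -2.15, SE 0.43, adjusted p = 0.013), and both were also named after their values were seen. The call of Il1b was lost in both fits with the replicate block, without EAE replicate 1 and without treated replicate 2. The TNF receptor Tnfrsf1b (log2 fold change -1.22, SE 0.16, adjusted p = 0.0024) and the interleukin-4 receptor chain Il4ra (log2 fold change -0.72, SE 0.10, adjusted p = 0.0029) were among the receptors that fell. The cytokine count was 12 without treated replicate 2 and 13 without EAE replicate 1 or 2. Of 19 chemokine ligands 9 fell, and of 14 chemokine receptors 5, such as Cxcr4 at 11, 13.1 and 9.07 CPM in EAE and 4.35, 5.62 and 4.83 in treated cords (log2 fold change -1.16, SE 0.17, adjusted p = 0.0036). The receptor count was 2 without EAE replicate 1 or treated replicate 2 and 3 without EAE replicate 2 or 3.

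Markers of infiltrating lymphocytes and monocytes also had falls. All 23 T cell genes tested had a fold change below 0 (median -1.42), and 8 fell. Cd3g, a chain of the T cell receptor complex, was at 2.72, 2.46 and 2.43 CPM in EAE and 0.0639, 0.452 and 0.64 in treated cords (log2 fold change -2.71, SE 0.41, adjusted p = 0.0039). Cd4, the co-receptor of helper T cells, was at 3.29, 2.98 and 3.15 CPM in EAE and 0.32, 1.2 and 2.3 in treated cords and did not pass (adjusted p = 0.13); its treated libraries spread widely. The T cell count was 4 without treated replicate 1, 2 without treated replicate 2, and 1, 3 and 4 without EAE replicates 1, 2 and 3. Of 16 monocyte and macrophage markers 7 fell and 12 had a fold change below 0. Their summed level was 538 to 737 CPM in EAE, 114 to 194 in treated and 102 to 131 in Control cords. Lyz2, with the values given above, was the largest part of the EAE sums but a small part of the Control sums. Against Control, 8 of the 16 markers were higher in treated cords and 0 lower. Close sums thus do not mean that each marker was at its Control level. The summed T cell level was 44.6 to 52.9 CPM in EAE and 17 to 31.8 in treated cords, with 16.3 to 16.8 in Control. Of the 23 T cell genes, 14 were higher in treated cords than in Control and 0 lower. The part of these cells in the other falls was not tested. Of 6 B and plasma cell genes 1 fell, Cd22, and of 3 natural killer genes 1, Klrk1, which lost its call with any 1 treated library left out. Of all genes tested 4.88% fell, and lists this small give no reading of these cells.

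Neutrophil genes did not follow the other leukocyte markers. Of 11 tested, 9 had a fold change above 0 (median 0.84), 1 fell, the growth factor receptor Csf3r, and 0 rose. Csf3r was not called without EAE replicate 1 or 2 or treated replicate 2. The 1 fall was 9.09% of the neutrophil list, against 4.88% of all genes tested. S100a9, a calgranulin abundant in neutrophils, was at 9.81, 8.7 and 4.08 CPM in EAE and 29.5, 9.18 and 10.4 in treated cords (adjusted p = 0.3). Treated replicate 1 was the high value, replicate 2 lay within the range of EAE and replicate 3 just above it. Treated replicate 1 was the highest treated library for 10 of the 11 genes. The list's median was 0.17 without treated replicate 1.

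Antigen presentation and interferon genes spread widely between treated animals. The median range over the 3 treated libraries was 1.70 log2 units for the interferon gamma GTPases, 1.43 for MHC class I and 1.21 for MHC class II, against 0.16 for all genes tested. All 15 MHC class II presentation genes had a fold change below 0 (median -1.34) and 8 fell. H2-Eb1, a class II beta chain, was at 102, 83.4 and 124 CPM in EAE and 4.54, 30.7 and 45.7 in treated cords (log2 fold change -1.93, SE 0.50, adjusted p = 0.049). Treated replicate 1 was the nearest to the Control level of 1.43 ± 0.159 CPM (SD, n = 3), and all treated values were below all EAE values. The call of H2-Eb1 was lost in 16 of 20 alternatives, among them DESeq2 and leaving out any 1 EAE or Control library. The class II count was 4 without EAE replicate 1 and 5 without EAE replicate 2 or 3. Ctss, the protease that trims the invariant chain, was at 743, 801 and 670.4 CPM in EAE and 160.5, 342 and 371 in treated cords (log2 fold change -1.34, SE 0.24, adjusted p = 0.0086). Of 19 class I and immunoproteasome genes 6 fell, such as the trimming peptidase Erap1 at 27.7, 27.7 and 26.6 CPM in EAE and 15.6, 19.8 and 18.8 in treated cords (log2 fold change -0.60, SE 0.10, adjusted p = 0.005).

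Interferon gamma-induced GTPases and their regulators gave 2 falls of 19, the factors Irf8 (log2 fold change -1.45, SE 0.23, adjusted p = 0.0043) and Irf1 (log2 fold change -0.93, SE 0.24, adjusted p = 0.044), although all 19 had a fold change below 0. The call of Irf1 was lost in 11 of 20 alternatives, among them leaving out any EAE library. Type I interferon response genes gave 3 of 24, among them Ifitm3, an antiviral membrane protein, and Bst2, tetherin, the latter at 25.4, 28.8 and 23.5 CPM in EAE and 6.46, 16.1 and 14.8 in treated cords (log2 fold change -1.06, SE 0.25, adjusted p = 0.03). The call of Bst2 was lost with any 1 EAE library left out and without Control replicate 2. Falls made up 10.5% of the GTPase list and 12.5% of the type I interferon list, against 4.88% of all genes tested. In each of the 15, 19, 19 and 24 members of these 4 lists treated replicate 1 was the lowest of the treated libraries. Median shifts from the EAE mean in treated replicates 1, 2 and 3 were -2.18, -1.10 and -0.93 for class II, -1.85, -0.50 and -0.48 for class I, -2.04, -0.62 and -0.25 for the GTPases and -0.99, -0.15 and -0.23 for type I interferon genes. The class I count was 12 without treated replicate 1 (median -0.51) and 2 without EAE replicate 1 or 2. The GTPase count was 8 without treated replicate 1 (median -0.50), 9 without treated replicate 3 and 1 with any other library left out except Control replicate 3 (2). The type I interferon count was 0 without EAE replicate 1 or 2, 1 without Control replicate 2 and 5 without treated replicate 3.

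**Figure D3:**
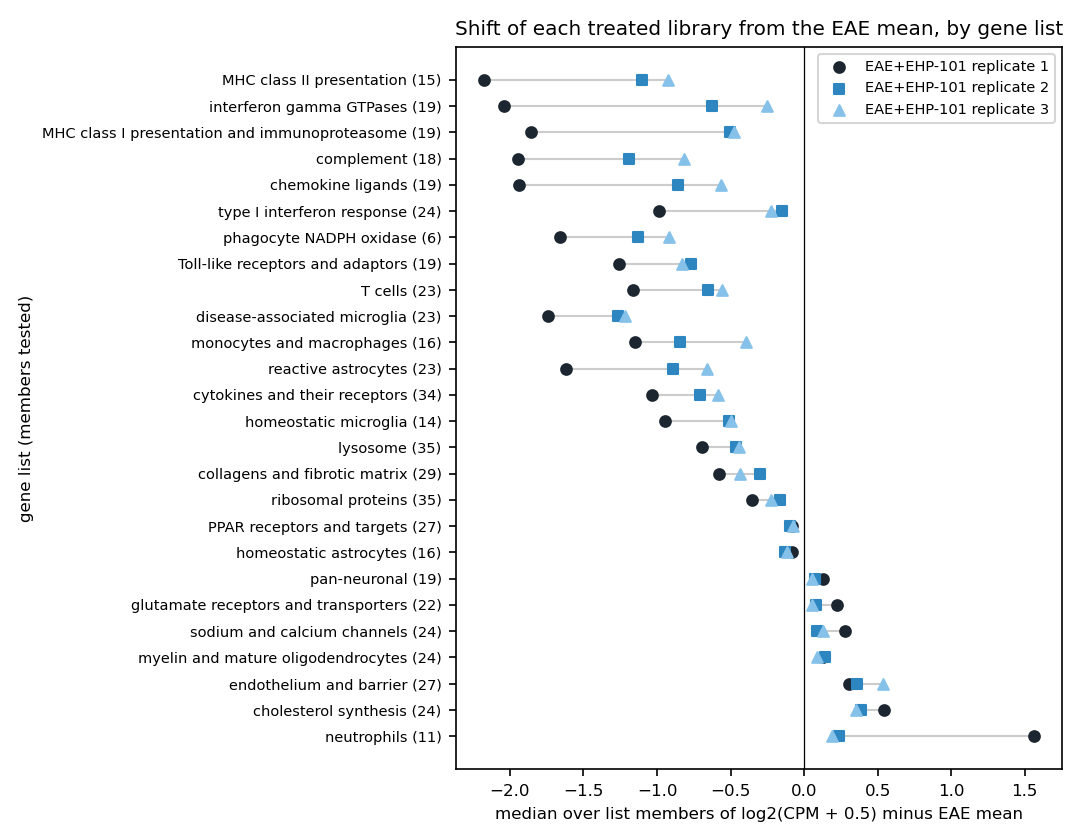
For each gene list (members tested in brackets), the median over members of log2(CPM + 0.5) in a treated library minus the mean of the 3 EAE libraries; circles, squares and triangles are treated replicates 1, 2 and 3. Treated replicate 1 lies furthest left for the MHC, interferon, complement and chemokine ligand lists, among others. The gap is more than 1 log2 unit for the MHC class I, MHC class II, GTPase and chemokine ligand lists. Treated replicate 1 lies furthest right for neutrophils, and the pan-neuronal, myelin and PPAR lists lie within 0.15 of 0 in all 3.

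Over the 811 falls, treated replicate 1 was the most shifted library for 726 genes, replicate 2 for 51 and replicate 3 for 34. Over all genes tested, treated replicate 1 was the lowest of the treated libraries for 6359, replicate 2 for 4736 and replicate 3 for 5528. The median shift of the falls was -1.15, -0.75 and -0.66 in replicates 1, 2 and 3. In 145 of the falls each treated library lay at least 1 log2 unit below the EAE mean of log2(CPM + 0.5). On the same scale, the range over the treated libraries was under 1 log2 unit for 685 falls and 2 or more for 11. The added 0.5 makes shifts and ranges smaller for genes at low levels, so a small range there does not show an even fall. Without treated replicate 1, 520 of the 811 genes were still called and all 811 kept their direction.

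The 6 most even falls, among those with a mean log2 level of at least 3, were small, with log2 fold changes of -0.58 to -0.27. Hif1a, the oxygen-regulated transcription factor, was at 151, 154 and 136 CPM in EAE and 122, 119 and 120.4 in treated cords (log2 fold change -0.29, SE 0.07, adjusted p = 0.038), and the interferon gamma receptor chain Ifngr2 at 46.4, 46.5 and 47.5 CPM in EAE and 38.8, 38.2 and 39.1 in treated cords (log2 fold change -0.27, SE 0.06, adjusted p = 0.021). Nagpa, Btg1 and Hnrnpf were also among the 6, all with treated ranges of at most 0.04 log2 units. Nagpa lost its call in 13 of 20 alternatives, and Hif1a, Ifngr2 and Btg1 lost theirs without EAE replicate 2 and without treated replicates 1 or 2. Hnrnpf lost its call without treated replicate 2. The 6 least even were H2-Eb1, Cst7, Timp1, Clec7a, Cybb and Ccn5. Cst7 was at 25, 34.8 and 25.2 CPM in EAE and 0.32, 4.36 and 4.29 in treated cords (log2 fold change -3.24, SE 0.50, adjusted p = 0.004), and Clec7a at 95.8, 110.3 and 68.6 CPM in EAE and 2.68, 12.9 and 15.7 in treated cords (log2 fold change -3.13, SE 0.43, adjusted p = 0.0024). Both were lowest in treated replicate 1, by over 2 log2 units. Timp1, an inhibitor of metalloproteases, was at 21.7, 20.7 and 21.8 CPM in EAE and 1.21, 3.98 and 8.32 in treated cords (log2 fold change -2.25, SE 0.43, adjusted p = 0.011), and Ccn5 at 28.8, 36.1 and 31.9 CPM in EAE and 1.73, 9.05 and 7.1 in treated cords (log2 fold change -2.44, SE 0.38, adjusted p = 0.0043). The call of Timp1 was lost without treated replicate 2. In all 6 of these genes treated replicate 1 was the lowest library.

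**Figure D4:**
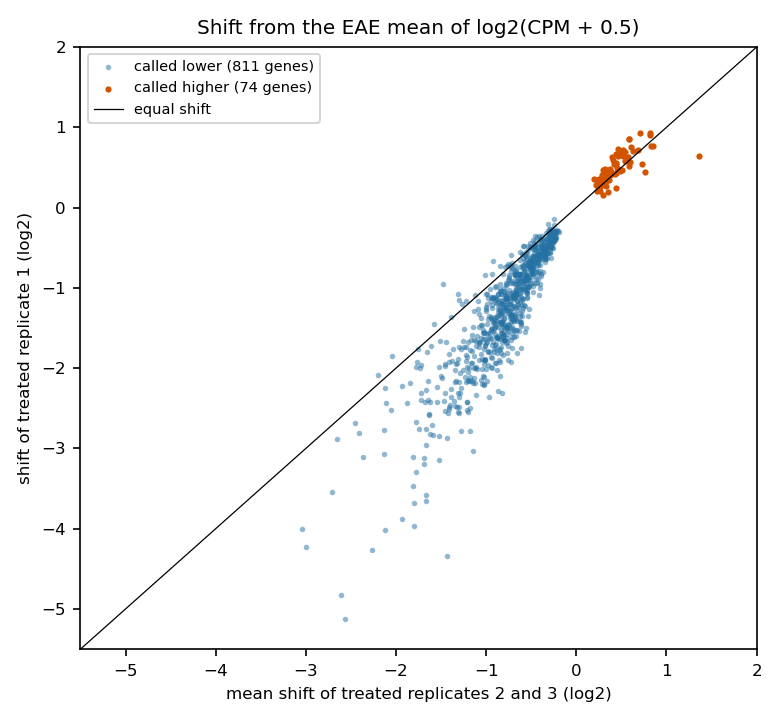
Each point is a called gene, placed by the mean shift of treated replicates 2 and 3 and by the shift of treated replicate 1, both from the EAE mean of log2(CPM + 0.5). Most of the 811 blue points (called lower) lie under the line of equal shift, while the 74 orange points (called higher) lie close to it.

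Reactive astrocytes surround lesions. Of 23 reactive astrocyte genes 16 fell (median -1.01), with Serpina3n, a serpin induced in reactive astrocytes, at 546, 599 and 419.7 CPM in EAE and 96.8, 156 and 222 in treated cords (log2 fold change -1.72, SE 0.23, adjusted p = 0.0024) and the intermediate filament Vim at 268, 372 and 254 CPM in EAE and 91.4, 145 and 135 in treated cords (log2 fold change -1.27, SE 0.21, adjusted p = 0.0056). Gfap, the astrocyte filament, was at 4307, 5299 and 3804 CPM in EAE and 3188, 3581 and 3608 in treated cords and did not pass (adjusted p = 0.25). The reactive count was 9 without treated replicate 2. Bulk tissue does not show which cells held these transcripts, and the part of leukocytes or stroma in the reactive count was not tested. Of 16 resting astrocyte genes 1 fell, Aldh1l1, with a small change (log2 fold change -0.29, SE 0.07, adjusted p = 0.043) that was not called in 12 of 20 alternatives, among them leaving out any treated library. The fall was 6.25% of the resting list, against 4.88% of all genes tested. It is not read as a result about resting astrocytes. The median of the resting list was -0.10.

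Matrix genes of fibrotic tissue also fell. Of 29 collagens and matrix genes 11 fell (7 without treated replicate 2) and 1 rose, and the median shifts in treated replicates 1, 2 and 3 were -0.58, -0.30 and -0.44. Col1a2 was at 52.7, 50.2 and 50.2 CPM in EAE and 27.7, 27.8 and 33 in treated cords (log2 fold change -0.79, SE 0.09, adjusted p = 0.0013), and the proteoglycan Lum at 10.6, 13.2 and 10.4 CPM in EAE and 2.11, 2.33 and 3.33 in treated cords (log2 fold change -2.14, SE 0.22, adjusted p = 0.00095). Periostin, Postn, was at 5.88, 12.8 and 7.35 CPM in EAE and 1.57, 1.78 and 1.09 in treated cords (log2 fold change -2.55, SE 0.29, adjusted p = 0.0013), with treated replicate 3 the lowest. The gene that rose was Hmcn1, a large extracellular fibulin-like protein, at 12.8, 13.5 and 11.4 CPM in EAE and 24.3, 23.7 and 21.3 in treated cords (log2 fold change 0.88, SE 0.12, adjusted p = 0.0023). Of 21 proteases and inhibitors 11 fell, including the plasminogen activator Plau at 15.9, 26 and 14.7 CPM in EAE and 3.52, 4.3 and 4.51 in treated cords (log2 fold change -2.20, SE 0.20, adjusted p = 0.00081). Lum and Dcn are also meningeal markers, and 3 of 8 meningeal genes fell; their part in the matrix result was not tested.

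Cholesterol synthesis was the only one of the 65 lists with more than 2 rises. Its enzymes build sterols from acetyl units, and SREBP factors switch them on when cell sterol is low. Of 24 genes tested 13 rose, 0 fell and all 24 had a fold change above 0 (median 0.46). Hmgcs1, which makes HMG-CoA (chr13:119690462-119708077), was at 378, 316 and 388 CPM in EAE and 648, 562 and 514 in treated cords (log2 fold change 0.67, SE 0.16, adjusted p = 0.029), and Control cords held 680.1 ± 176 CPM (SD, n = 3). All treated values of Hmgcs1 were above all EAE values.

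Insig1, the sterol sensor that restrains the pathway, was at 74.3, 64.3 and 78.6 CPM in EAE and 119.7, 99.8 and 99.9 in treated cords (log2 fold change 0.56, SE 0.11, adjusted p = 0.011), and the epoxidase Sqle at 81.2, 71.8 and 86.8 CPM in EAE and 126, 111 and 110.1 in treated cords (log2 fold change 0.53, SE 0.10, adjusted p = 0.0096). Lss, Mvd, Fdft1, Fdps, Nsdhl, Dhcr7 and Tm7sf2 also rose. In 22 of the 24 genes treated replicate 1 was the highest treated library, but the median shifts were close, at 0.54, 0.38 and 0.35. The count of rises was 4 without treated replicate 1, 6 without treated replicate 2, 5 without EAE replicate 1 and 3 without EAE replicate 2. Hmgcs1 lost its call in all 4 of these, while Sqle was called in all 20 alternatives and Insig1 in all but that without EAE replicate 2. Against Control, the list's median was -0.62 in EAE and -0.15 in treated EAE. Genes of cholesterol efflux, which LXR receptors control, gave 8 falls of 18 and 0 rises. Among them the lipoprotein gene Apoc2 was at 3.08, 4.03 and 1.93 CPM in EAE and 0.128, 0.323 and 0.256 in treated cords (log2 fold change -3.65, SE 0.41, adjusted p = 0.0013), and the exporter Abca1 also fell.

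**Figure D5:**
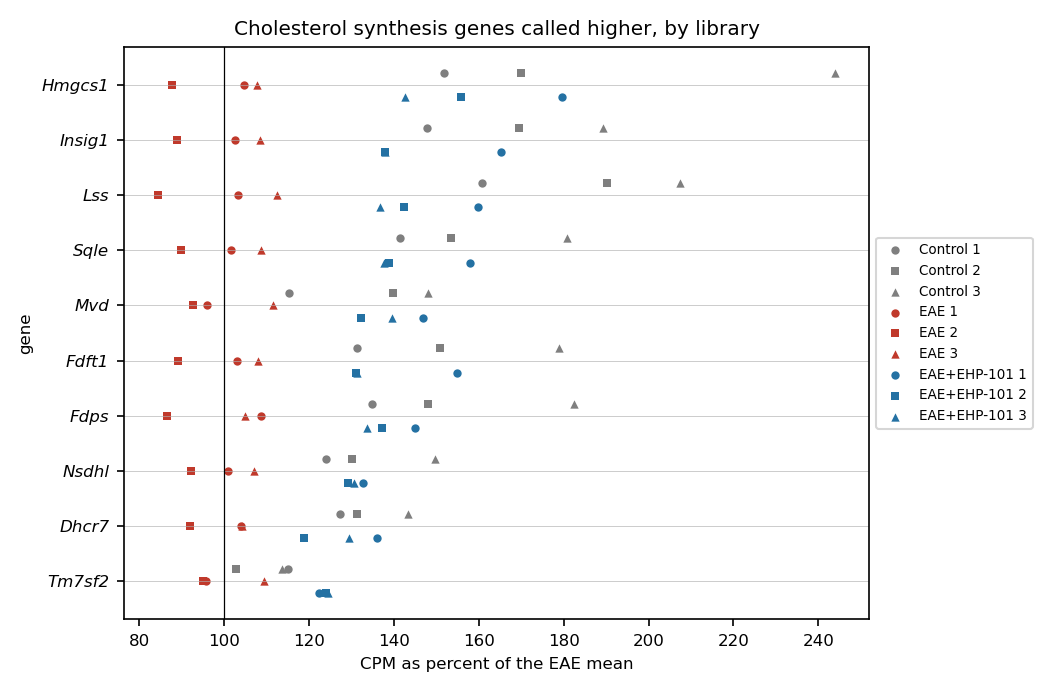
CPM of 10 of the 13 cholesterol synthesis genes called higher, as a percent of the EAE mean, with 1 point per library; grey is Control, red EAE and blue EAE+EHP-101, and circles, squares and triangles are replicates 1, 2 and 3. The blue points lie right of the red ones for all 10 genes, and for Tm7sf2 they also lie right of Control.

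Of 27 endothelial and barrier genes 2 rose, the receptor Tie1 at 8.93, 7.33 and 5.42 CPM in EAE and 12.4, 12.4 and 14 in treated cords (log2 fold change 0.84, SE 0.21, adjusted p = 0.045) and the thyroid hormone transporter Slco1c1 at 38, 32.5 and 36.5 CPM in EAE and 42.4, 47.9 and 48.7 in treated cords (log2 fold change 0.38, SE 0.08, adjusted p = 0.019), and 24 had a fold change above 0 (median 0.39). The 2 rises were 7.41% of that list, against 0.445% of all genes tested. Neither was called without EAE replicate 2 or without treated replicate 2 or 3, and the list had 7 rises without Control replicate 3. In 18 of the 27 genes treated replicate 1 was the lowest treated library. Of 15 pericyte and smooth muscle genes 0 rose and 2 fell, the aminopeptidase Anpep (-1.37) and the actin-binding protein Tagln (-0.95). The 2 falls were 13.3% of that list, against 4.88% of all genes tested. Other rises under the naming rule were Myoc, myocilin, at 44.3, 28.4 and 26.3 CPM in EAE and 55, 57 and 58.1 in treated cords (log2 fold change 0.78, SE 0.20, adjusted p = 0.048), Lmod1, a leiomodin of smooth muscle (0.75), the semaphorin Sema3g (0.71), the sodium/proton exchanger Slc9b2 (0.63) and Lmo7 (0.57). Ccdc187, Slain1os, Smtnl2 and Gng8, a G protein gamma subunit, rose by 0.72, 0.70, 0.64 and 0.62 on the log2 scale. Of all 15 largest rises, 3 were called in every alternative. The calls of Sema3g, Myoc, Tie1 and Slain1os were lost in 12, 11, 11 and 10 of 20 alternatives. Leaving out EAE replicate 2 lost those of Ccdc187, Smtnl2, Gng8 and Lmod1.

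The neuronal lists held 1 rise, among 21 dorsal horn genes tested, and 1 fall, among 15 neuronal injury genes. Of all genes tested 0.445% rose and 4.88% fell, so these calls are not read as a result about neurons. Grpr, the gastrin-releasing peptide receptor of dorsal horn itch circuits, was at 1.39, 1.41 and 1.09 CPM in EAE and 2.43, 2.23 and 2.53 in treated cords (log2 fold change 0.89, SE 0.18, adjusted p = 0.016), and its call was lost without EAE replicate 3. None of 19 pan-neuronal, 14 motor neuron, 24 glycine and GABA, 22 glutamate, 34 potassium channel or 24 sodium and calcium channel genes passed in this fit. The pan-neuronal median was 0.07 and that of the sodium and calcium channels 0.16. Among neuronal injury genes Atf3, a stress-induced factor, fell at 10.2, 13.4 and 12.2 CPM in EAE and 2.24, 3.36 and 5.6 in treated cords (log2 fold change -1.67, SE 0.33, adjusted p = 0.012), and was not called without EAE replicate 2 or treated replicate 2.

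Of 24 myelin and oligodendrocyte genes 1 rose, the fatty acid hydroxylase Fa2h at 189, 185 and 166 CPM in EAE and 249, 222 and 219 in treated cords (log2 fold change 0.35, SE 0.08, adjusted p = 0.026), whose call was lost with any 1 EAE library or treated replicate 1 or 2 left out. The rise was 4.17% of that list, against 0.445% of all genes tested. The list median was 0.12. Gjc3, a glial connexin, was at 179, 183 and 182 CPM in EAE and 213, 210.3 and 227 in treated cords; its groups did not overlap, its adjusted p was 0.054, and 7 of 20 alternatives called it higher. None of 24 progenitor genes passed. Tenm4, a teneurin that supports oligodendrocyte differentiation, was at 58.5, 44.7 and 60.9 CPM in EAE and 82.4, 69.5 and 65.5 in treated cords (adjusted p = 0.16), and the lineage factor Olig2 at 58.5, 60 and 62.3 CPM in EAE and 71.3, 64.3 and 62 in treated cords (adjusted p = 0.69).

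Of the receptors known for EHP-101, Cnr2 fell. It was at 3.44, 3.52 and 3.08 CPM in EAE and 0.895, 1.16 and 1.57 in treated cords (log2 fold change -1.47, SE 0.20, adjusted p = 0.0026), against 0.53 ± 0.048 CPM (SD, n = 3) in Control, and all treated values were below all EAE values. Cnr1, the neuronal cannabinoid receptor, was at 61.1, 50.3 and 57.1 CPM in EAE and 62.2, 55.2 and 54.2 in treated cords (adjusted p = 0.91), and Pparg at 1.33, 1.22 and 0.997 CPM in EAE and 1.15, 1.1 and 1.5 in treated cords (adjusted p = 0.89). Of 27 PPAR receptors and targets 5 fell, 0 rose and the median was -0.08. The 5 were Lpl, a lipoprotein lipase that also stands in the microglial list (log2 fold change -1.78, SE 0.26, adjusted p = 0.0033), Plin2, Ucp2, Cd36 and Fabp5. The count was 3 with any 1 EAE library or treated replicate 1 or 2 left out. Of 25 hypoxia genes 3 fell, Hk2, Ldha and Hif1a, with a list median of -0.10 and 1 call without EAE replicate 1 or 2 or treated replicate 1 or 2. Of 22 NRF2 genes 3 fell, with Hmox1, the heme oxygenase, at 17.7, 18.1 and 18.6 CPM in EAE and 7.42, 8.4 and 11.6 in treated cords (log2 fold change -0.99, SE 0.14, adjusted p = 0.0026). Falls made up 18.5% of the PPAR list, 12% of the hypoxia list and 13.6% of the NRF2 list. Of all genes tested 4.88% fell.

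None of 20 clock genes, 18 heat shock genes or 34 nuclear-encoded respiratory chain genes passed. All 35 ribosomal protein genes had a fold change below 0 (median -0.26), and 3 fell, led by Rplp0 (log2 fold change -0.42, SE 0.08, adjusted p = 0.012). That count was 14 without Control replicate 3, 5 without EAE replicate 3, 1 without treated replicate 1 or 3 and 0 without EAE replicate 2. The 3 falls were 8.57% of the ribosomal list, against 4.88% of all genes tested. Of 26 cell cycle genes 3 fell, including Top2a, a topoisomerase of dividing cells, at 7.87, 6.94 and 6.11 CPM in EAE and 3.64, 2.91 and 3.49 in treated cords (log2 fold change -1.06, SE 0.26, adjusted p = 0.038). The cell cycle count was 5 without Control replicate 3, 1 without treated replicate 1 or 2 and 0 without EAE replicate 1 or 2, and Top2a lost its call with any 1 of the 6 EAE libraries left out. Falls were 11.5% of the cell cycle list.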

How the data were processed

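Spinal cord RNA of 9 mice in 3 groups was sequenced with single-end reads of 50 bp, per the labels' protocols. The authors' deposited file gives whole-number counts of reads for each Entrez gene, with no normalisation. The submitters' processing notes list Trimmomatic 0.36 and HISAT2 2.1.0, then featureCounts 1.6.1 and DESeq2 1.20.0, on mm10. Neither the strand setting nor the handling of multiply mapped reads is stated there. RefSeq symbols (GRCm38.p6) were matched to 16215 of the 16623 genes tested.

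In R 4.3.3, edgeR 4.0.16 (TMM factors, glmQLFit and glmQLFTest, a mean for each group) took in all 9 libraries, so that the Control libraries add to the estimate of spread. P-values were adjusted by Benjamini-Hochberg over all genes tested. Shifts use log2(CPM + 0.5). The 20 alternatives were DESeq2 1.42.0, other scalings and filters, the 6 EAE libraries alone, a replicate block, removal of the length trend, and leaving out each library. The code was tested on simulated data.

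The members and the 65 gene lists (1198 genes, 1125 tested) were chosen with earlier results of these data known. The rule named the 15 largest falls and rises that did not overlap and whose mean log2 CPM was 1 or more, up to 4 genes per list in order of p, the 6 most and least even falls whose mean log2 CPM was 3 or more, and Cnr1, Cnr2, Pparg, Tenm4, Gjc3, Olig2, Mbp, Gfap and Cd4. Predicted genes were counted but not named, and results for some genes are not reported here. Named outside the rule, after their values were seen, were Hoxc9, S100a9, Spi1, Tnf, Il1b, C1qc, Trem2, Tyrobp, Tmem119, P2ry12, Abca1, Postn and the further cholesterol genes.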

Additional observations from a re-analysis of the deposited data

How the results depend on the processing

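All 811 falls and 74 rises kept their direction in every alternative that tested them. The rises numbered 144 with DESeq2 and 168 with the 6 EAE libraries alone, against 74. The correlations of same-numbered deviations were -0.067, 0.27 and -0.30, and not every library correlated best with its own number. With 3 libraries per group these values cannot settle whether same-numbered libraries shared a batch. With a replicate block over the 6 libraries the falls numbered 426 and the rises 72, and with the block and the length trend removed 298 and 39. The cause was not tested. Most losses given above for single genes name left-out libraries only. Cx3cr1, Timp1, Hnrnpf, Csf3r, Bst2, Klrk1, Slco1c1, Hif1a, Grpr and Sox7, among others, also lost their calls in both fits with the block. Cd3g, Ctss, Mmp12, Pycard, Lmo7 and Ifngr2, among others, lost theirs with the block and the trend removed. Leaving out 1 library at a time gave 407 to 988 falls and 19 to 205 rises, the highest of both without Control replicate 3. The other scalings, the other filters and removal of the length trend alone gave 766 to 860 falls and 63 to 80 rises. Of 179 named genes called, 83 kept their call in all alternatives that tested them, among them 13 of the 15 largest falls and 3 of the 15 largest rises. Cnr1 and Pparg, neither of them called, changed sign. The log2 fold change of Cnr1 was -0.014 with the length trend removed, -0.0074 with the block and the trend removed, and -0.047 to 0.089 with 1 library left out, below 0 without EAE replicate 2 or treated replicate 1 (-0.036). That of Pparg was -0.070 to 0.18 with 1 library left out, below 0 without EAE replicate 3 (-0.019) or treated replicate 3. Of the falls, 22 had fewer than 10 counts in every treated library, so their fold changes are imprecise.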

Other observations

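Several gene families of leukocyte surface receptors, chosen after their values were seen, also had lower members in the treated cords. All 9 SLAM receptors tested fell, with a median log2 fold change of -1.84, and Slamf7 lost its call in 4 of 20 alternatives. Slamf1 was at 0.634, 0.704 and 0.436 CPM in EAE and 0.128, 0.129 and 0.224 in treated cords. At such low levels its fold change is imprecise. The MS4A family gave 5 falls of 8, the CD300 receptors 4 of 7, the Clec4 lectins 3 of 6 and the Siglecs 2 of 4, and 0 members rose. Of the serpin A3 family 4 of 6 fell, and of the interferon-inducible PYHIN family 3 of 8. Over all genes tested 4.88% fell, but the families were picked by these same values, so their shares are not evidence beyond them. The PYHIN falls included Ifi213, at 0.392, 0.32 and 0.436 CPM in EAE and 0.032, 0.162 and 0.064 in treated cords. Its fold change is likewise imprecise. Reads of near-identical members of these families may be split between them, since the handling of multiply mapped reads is not given in the sources used here.

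Among the rises outside the lists were Acat2, a thiolase of sterol synthesis, at 44.3, 45.7 and 43.9 CPM in EAE and 56.7, 57.1 and 58 in treated cords (log2 fold change 0.36, SE 0.07, adjusted p = 0.015), and Pcyt2, an enzyme of phosphatidylethanolamine synthesis, at 99.8, 92.5 and 98.3 CPM in EAE and 117, 116 and 116 in treated cords (log2 fold change 0.26, SE 0.06, adjusted p = 0.028). Sox7, an endothelial transcription factor, was at 0.935, 0.672 and 0.592 CPM in EAE and 1.79, 1.49 and 1.86 in treated cords (log2 fold change 1.22, SE 0.26, adjusted p = 0.019). Their treated libraries lay close together, and all lay above the EAE libraries. Pcyt2 lost its call with any 1 of the 6 EAE libraries left out, Acat2 without EAE replicate 1 or treated replicate 2, and Sox7 without EAE replicate 2 or 3 or treated replicate 1 or 3. These 3 genes were chosen after their values were seen.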
